A study of Mus musculus with 12 samples.

Results

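The 10 genes Angpt1, Eya1, Prom1, Cd34, Erg, Gata2, Lmo2, Tal1, Mecom and Sox4 encode a growth factor ligand, 2 surface glycoproteins and 7 nuclear regulators that are known from blood stem and progenitor cells. They were chosen by name, and every probe set that the platform annotation gives to one of these symbols was taken. A probe set is a group of short array probes read out as 1 signal. The 10 genes had 24 probe sets of the 45101 on the array, and no probe set was shared with another symbol. Of these 24, 20 passed the filter on dim signal, which removed probe sets that exceeded their array's 40th percentile on fewer than 3 of the 12 arrays. Every gene kept at least 1, of 18193 genes with a symbol and 14005 with a kept probe set.

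Bulk RNA of sorted cells was measured on 12 Affymetrix mouse arrays, 3 for each of 4 retroviral vectors. M33-MEIS1 cultures carried a construct of that name, about which the labels say no more; M33 was an earlier symbol for Cbx2, which encodes a chromatin repressor of the Polycomb group. MEIS1-deltaHD cultures carried MEIS1 without its homeodomain, the part that binds DNA. MEIS1-WT cultures carried wild-type MEIS1, and MIY-ctrl cultures carried the vector alone, which encodes yellow fluorescent protein. All 4 groups shared the same starting point: bone marrow of F1 mice (C57Bl/6Ly-Pep3b x C3H/HeJ) treated with 5-fluorouracil, transformed by a virus for NUP98-HOXD13 (a leukaemia fusion gene of a nucleoporin and a homeobox protein) and kept in liquid culture for 4 weeks with human IL-6 (10 ng/ml), mouse IL-3 (6 ng/ml) and mouse stem cell factor (100 ng/ml). The second virus was brought in by 2 days on irradiated E86 cells, the fibroblast line that releases it. All cells were transduced marrow grown in cytokines, and the sort gate and the age of the mice were not given in the sources used here.

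Blood stem cells are kept in their state by a small set of transcription factors that bind together at shared enhancers. TAL1, LMO2 and GATA2 form one complex, in which LMO2 is a bridge between the DNA-binding partners, and ERG, an ETS factor, binds at many of the same places. MEIS1 is a TALE homeodomain protein that binds DNA with PBX and HOX partners and is a known cofactor of HOX-driven leukaemia.

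Upstream sequence from RefSeq (GRCm38.p6) was available for 7 of the 10 genes, with 13 annotated starts, and is given because MEIS1-WT and MEIS1-deltaHD differ in the DNA-binding homeodomain. In the 250 bases before each start, 5 motifs were searched on both strands: TGACAG (the MEIS core), AGATAA (bound by factors such as GATA2, with the variant that starts with the letters TGATAA counted as the same motif), CAGNTG (E-box, bound by TAL1 with its partners), AGGAAG (ETS) and TGATTNAT (PBX-HOX). No match shown overlaps another. The MEIS core stood in 2 of the 13 windows, against 15.9% of 32851 windows of the same length. The GATA letters stood in 3 windows (16.6% of all windows), the E-box in 4 (44.8%), the ETS letters in 4 (29.5%) and the PBX-HOX letters in 0 (2.82%). The 6 windows shown each hold a match and belong to 5 genes with a signal that differed between groups, each read 5′ to 3′ on the gene's strand, with the matches in capitals.
Erg start 3, chr16:95459349-95459598, minus strand: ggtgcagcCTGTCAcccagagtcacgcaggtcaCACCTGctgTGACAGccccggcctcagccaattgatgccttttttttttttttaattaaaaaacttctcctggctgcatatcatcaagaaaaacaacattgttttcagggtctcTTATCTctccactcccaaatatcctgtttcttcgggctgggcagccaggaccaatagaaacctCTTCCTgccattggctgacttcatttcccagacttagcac
Mecom start 1, chr3:30509760-30510009, minus strand: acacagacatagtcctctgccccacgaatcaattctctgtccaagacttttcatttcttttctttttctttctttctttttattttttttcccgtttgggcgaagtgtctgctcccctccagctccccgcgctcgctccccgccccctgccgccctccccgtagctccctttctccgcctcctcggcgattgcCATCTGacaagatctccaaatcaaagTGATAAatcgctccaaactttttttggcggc
Mecom start 2, chr3:30013205-30013454, minus strand: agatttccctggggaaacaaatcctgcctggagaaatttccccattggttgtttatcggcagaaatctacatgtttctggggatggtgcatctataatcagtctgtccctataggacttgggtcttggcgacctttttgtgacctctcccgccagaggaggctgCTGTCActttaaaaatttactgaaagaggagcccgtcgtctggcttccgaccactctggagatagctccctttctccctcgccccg
Tal1 start 1, chr4:115056176-115056425, plus strand: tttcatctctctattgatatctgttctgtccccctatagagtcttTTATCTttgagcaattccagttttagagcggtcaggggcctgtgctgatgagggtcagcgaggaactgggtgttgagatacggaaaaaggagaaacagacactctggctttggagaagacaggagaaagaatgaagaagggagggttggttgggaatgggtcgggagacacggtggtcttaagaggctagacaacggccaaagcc
Prom1 start 1, chr5:44101737-44101986, minus strand: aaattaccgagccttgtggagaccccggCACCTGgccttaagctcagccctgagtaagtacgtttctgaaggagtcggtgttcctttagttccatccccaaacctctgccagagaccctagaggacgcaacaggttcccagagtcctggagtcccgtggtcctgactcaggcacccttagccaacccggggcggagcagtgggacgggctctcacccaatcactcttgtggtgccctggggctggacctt
Cd34, chr1:194938571-194938820, plus strand: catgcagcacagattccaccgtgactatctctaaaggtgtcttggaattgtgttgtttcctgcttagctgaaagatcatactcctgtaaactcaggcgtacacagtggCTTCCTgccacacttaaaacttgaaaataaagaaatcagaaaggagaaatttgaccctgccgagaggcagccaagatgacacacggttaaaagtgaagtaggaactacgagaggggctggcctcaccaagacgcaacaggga
The third Erg start held both MEIS core matches of that gene, CTGTCA at -242 to -237 and TGACAG at -208 to -203 from the start, with an E-box match between them, and further on 1 GATA and 1 ETS match. The first Mecom start held a GATA match at -31 to -26 and an E-box match at -57 to -52, and the second a MEIS core match at -86 to -81. The Tal1 window shown held 1 GATA match, the Prom1 window shown 1 E-box match and the Cd34 window 1 ETS match. Not shown were the second Prom1 start, with 4 ETS matches, and the Sox4 start, with 1 E-box and 1 ETS match. Also not shown were Erg starts 1 and 2, Gata2 starts 1 and 2 and Tal1 start 2, which held 0 matches of any motif. A match is a description of the letters, and no binding was measured.

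The arrays of a group correlated at 0.98 to 0.988 over kept probe sets, and arrays of different groups at 0.943 to 0.987. Replicate 2 of M33-MEIS1 lay closest to an array of MEIS1-deltaHD, and each other array lay closest to one of its own group. The median signal of an array was 14 to 16 with M33-MEIS1, 13.1 to 13.9 with MEIS1-deltaHD and 14.2 to 15.3 with MEIS1-WT, against 17.3 to 21.6 in MIY-ctrl. The values keep the authors' scaling, which set every array to the same trimmed mean. The Meis1 probe set averaged 117 ± 14.6 with M33-MEIS1, 110 ± 9.96 with MEIS1-deltaHD and 141 ± 10.4 with MEIS1-WT, against 187 ± 18.4 in MIY-ctrl (SD, n = 3 each). The difference from MIY-ctrl passed as lower with each construct (-0.62, -0.69 and -0.37) and in none under linear median scaling. Whether this probe set reads the viral transcripts is not known here, so it does not check the labels. Of the 8 general haematopoietic markers, 0 lay below the 40th percentile on all 3 arrays of any group. They summed to 11110 to 11560 with M33-MEIS1, 10590 to 10800 with MEIS1-deltaHD and 9531 to 10030 with MEIS1-WT, against 14570 to 15470 in MIY-ctrl. Markers of mature cells differed: the summed signal of 10 monocyte and macrophage markers was 4900 to 5581 with M33-MEIS1, 3265 to 3556 with MEIS1-deltaHD and 1342 to 1607 with MEIS1-WT, against 13730 to 15230 in MIY-ctrl. All 10 of these markers were lower with each construct. Mast cell and basophil markers (10 genes) summed to 4028 to 4293 with M33-MEIS1, 2136 to 2312 with MEIS1-deltaHD and 1787 to 1872 with MEIS1-WT, against 2552 to 3629 in MIY-ctrl. Megakaryocyte markers (8 genes) summed to 1133 to 1598 with M33-MEIS1, 624.9 to 844.4 with MEIS1-deltaHD and 1504 to 2212 with MEIS1-WT, against 948.8 to 1142 in MIY-ctrl. The median log2 difference of these 8 from MIY-ctrl was -0.024 with M33-MEIS1, -0.56 with MEIS1-deltaHD and 0.022 with MEIS1-WT. With MEIS1-WT, Pf4 passed as higher, and Vwf and Gp5 passed as lower. Neutrophil markers (11 genes) summed to 22430 to 26220 with M33-MEIS1, 21530 to 22910 with MEIS1-deltaHD and 13980 to 14790 with MEIS1-WT, against 18920 to 22380 in MIY-ctrl. Endothelial markers (9 genes), which bear on Cd34, Erg and Tal1, summed to between 356.8 and 426.2 on all arrays. Of the 6 kept by the filter, Kdr passed as lower than in MIY-ctrl with each construct, and Cldn5 with MEIS1-deltaHD. The rest did not pass. Over all genes, 19.3% were lower with M33-MEIS1, 23.7% with MEIS1-deltaHD and 20.2% with MEIS1-WT. Cdh5, Emcn and Tek lay below the 40th percentile on all 3 arrays of each group except MEIS1-WT, as did Tie1 in MIY-ctrl and Plvap in MEIS1-WT. Fibroblast markers (9 genes) summed to 281.9 to 302.4 with M33-MEIS1, 280.4 to 344.4 with MEIS1-deltaHD and 360.5 to 395.9 with MEIS1-WT, against 454 to 571.3 in MIY-ctrl. In bulk RNA, fewer cells of a type and less RNA per cell cannot be told apart, and the part of these cell markers in the results below was not tested.

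Against MIY-ctrl, at the authors' scaling, most of the member probe sets that passed were lower with a construct, and Cd34 was higher with each. Under linear median scaling the members that passed were no longer mostly lower, while Cd34 stayed higher with each construct. With M33-MEIS1, 2 were higher and 2 lower, beside 7219 and 1599 of all 31726 kept probe sets. With MEIS1-deltaHD, 4 and 2 were (9653 and 1799 of all), and with MEIS1-WT 4 and 2 (7896 and 2081 of all). After quantile normalization, 1 member probe set was higher and 9 were lower with M33-MEIS1 (4350 and 3772 of all). The counts were 1 and 8 with MEIS1-deltaHD (5266 and 4394 of all), and 3 and 9 with MEIS1-WT (4968 and 4071 of all). At the authors' scaling, 1 of 20 member probe sets was higher with M33-MEIS1 and 10 were lower, where 11.8% and 17.1% of all 31726 kept probe sets were higher and lower. With MEIS1-deltaHD, 1 was higher and 12 were lower (13.8% and 20.8% of all). With MEIS1-WT, 2 were higher and 10 were lower (13.1% and 17.8% of all). A probe set passed at an adjusted p below 0.05 in limma's moderated test over all 12 arrays. These 3 comparisons share the same 3 control arrays. The median log2 difference of the 20 members was -0.30 with M33-MEIS1, -0.36 with MEIS1-deltaHD and -0.36 with MEIS1-WT, beside -0.12, -0.14 and -0.10 over all kept probe sets. Several probe sets read 1 gene (6 kept for Sox4, 3 for Eya1), so the 20 are not independent. By the brightest kept probe set of each gene, 1 gene was higher and 6 lower with M33-MEIS1, 1 and 6 with MEIS1-deltaHD, and 2 and 5 with MEIS1-WT. Over all 14005 genes read this way, 15% and 19.3% were higher and lower with M33-MEIS1, 16.7% and 23.7% with MEIS1-deltaHD, and 16.1% and 20.2% with MEIS1-WT.

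**Figure D1:**
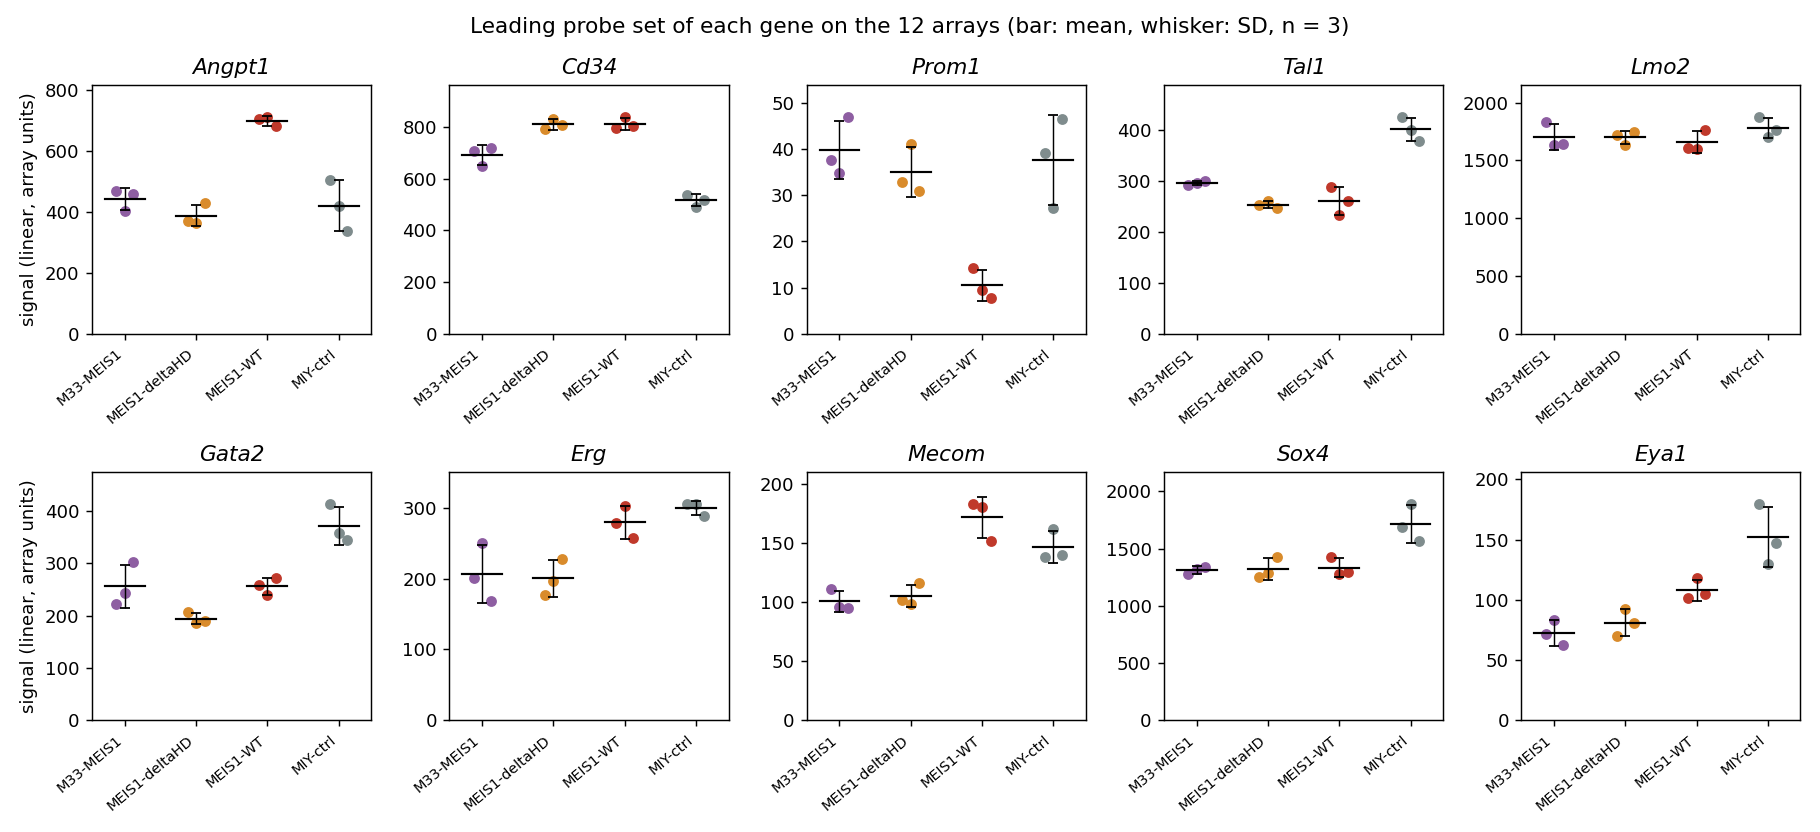
Signal of the brightest kept probe set of each of the 10 genes on the 12 arrays, on a linear axis from 0, with the 3 arrays of each group as points, the mean as a line and the SD as a whisker. Angpt1 stood apart with MEIS1-WT (mean 699, against 420 in MIY-ctrl) and Prom1 was lowest there (10.5, against 37.6), while Cd34 was above MIY-ctrl with all 3 constructs.

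The direction of a member against MIY-ctrl was also read under 3 other ways of bringing the arrays to a common scale. Quantile normalization moved the median log2 difference of all probe sets by 0.13 with M33-MEIS1, 0.16 with MEIS1-deltaHD and 0.13 with MEIS1-WT. Centring each array's log2 values on their median, an alternative chosen after seeing the data, moved it by 0.19, 0.26 and 0.19. Scaling each array linearly to a common median moved it by 0.23, 0.31 and 0.23. Of all probe sets that passed, 40.8%, 39.8% and 42.4% were higher with M33-MEIS1, MEIS1-deltaHD and MEIS1-WT at the authors' scaling. These shares were 53.6%, 54.5% and 55% after quantile normalization, 71%, 73.4% and 69.7% after centring, and 81.9%, 84.3% and 79.1% after linear median scaling. Each member's call below is given with the scalings that end it. Between constructs, linear median scaling moved the median by -0.11 (M33-MEIS1 against MEIS1-deltaHD), -0.006 (M33-MEIS1 against MEIS1-WT) and 0.10 (MEIS1-deltaHD against MEIS1-WT). The share of higher calls in the last comparison was 53.4% at the authors' scaling, 54.6% after quantile normalization, 68.4% after centring and 76.5% after linear median scaling. Between M33-MEIS1 and MEIS1-deltaHD it was 89.1% at the authors' scaling and 78.4% after linear median scaling.

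**Figure D2:**
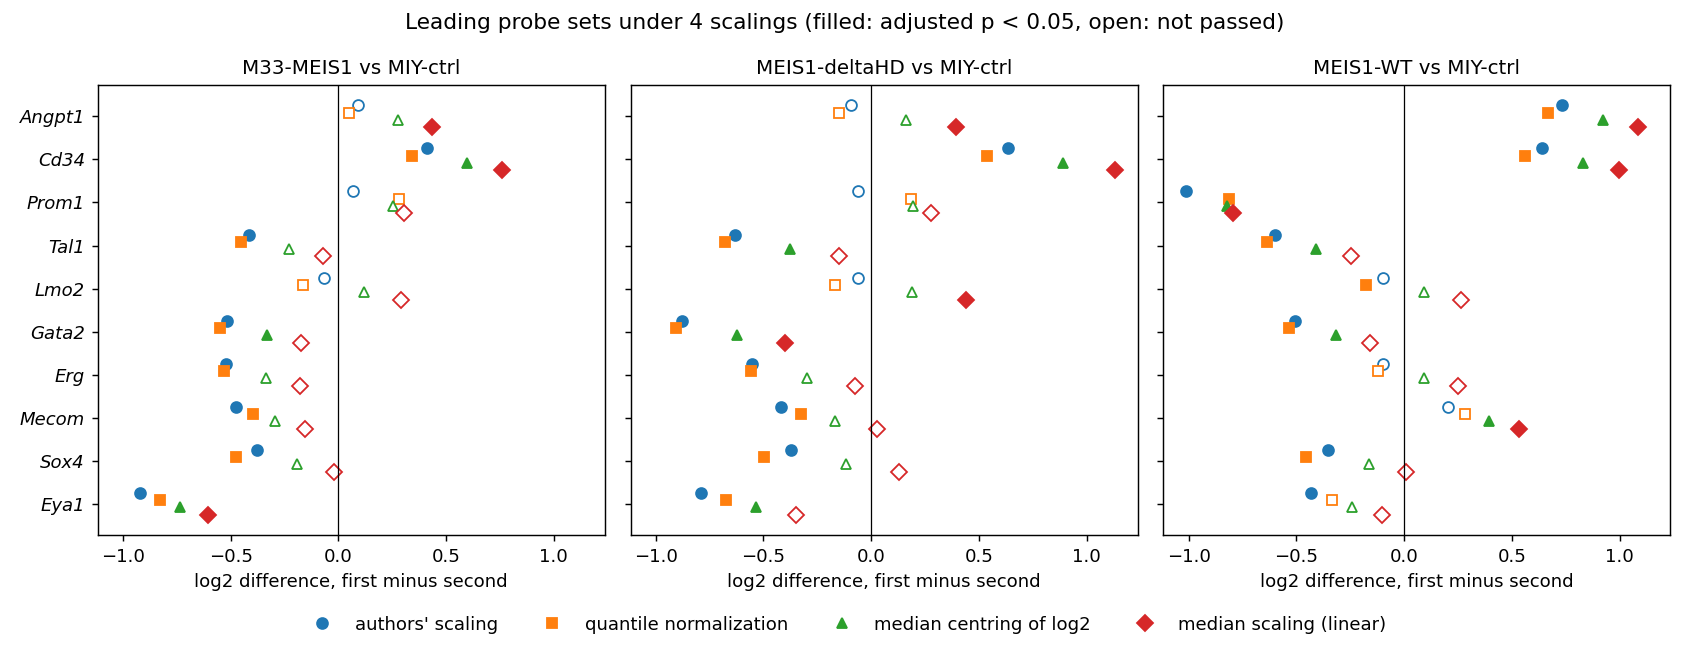
Log2 difference against MIY-ctrl of the brightest kept probe set of each gene (rows) under 4 scalings, 1 panel per construct, with filled symbols where the adjusted p was below 0.05. Cd34 stayed above 0 and filled throughout, and Prom1 stayed filled below 0 with MEIS1-WT, while Tal1, Gata2, Erg and Sox4, and Mecom with M33-MEIS1 and MEIS1-deltaHD, moved toward 0 or past it from the authors' scaling to linear median scaling.

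Angpt1 encodes angiopoietin-1, the ligand of the receptor TIE2 (Tek) that acts on endothelial and stem cells. Its brighter probe set, 1439066_at, read 468, 403 and 458 with M33-MEIS1 and 372, 365 and 429 with MEIS1-deltaHD. It read 705, 711 and 681 with MEIS1-WT, against 504, 420 and 336 in MIY-ctrl. All 3 MEIS1-WT arrays lay above the other 9, which overlapped. On the log2(signal + 16) scale the difference of MEIS1-WT from MIY-ctrl was 0.73 (SE 0.108, adjusted p = 1.14e-05). MEIS1-deltaHD lay 0.83 below MEIS1-WT (log2 difference -0.83, adjusted p = 1.87e-05), and M33-MEIS1 lay below it too (-0.64, adjusted p = 3.18e-04). Neither of these constructs passed against MIY-ctrl, with intervals of -0.13 to 0.31 for M33-MEIS1 and -0.32 to 0.13 for MEIS1-deltaHD. Under linear median scaling M33-MEIS1 passed as higher (0.44), and so did MEIS1-deltaHD, with its sign turned (0.39).

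The dimmer Angpt1 probe set, 1421441_at, gave the same order between constructs. It read 150, 146 and 155 with M33-MEIS1, 117, 130 and 150 with MEIS1-deltaHD and 240, 228 and 216 with MEIS1-WT, against 173, 228 and 142 in MIY-ctrl. MEIS1-deltaHD was lower than MEIS1-WT by this probe set (-0.72, adjusted p = 6.33e-04), and so was M33-MEIS1 (-0.55, adjusted p = 0.00763; 0.0641 without the intensity trend). Against MIY-ctrl, MEIS1-WT did not pass (0.33, adjusted p = 0.05), and 1 control array lay among the MEIS1-WT arrays. Without that array, MIY-ctrl replicate 2, the difference was 0.50 (adjusted p = 0.00225), and it also passed under the 3 other scalings (0.37 to 0.67). MEIS1-deltaHD passed as lower than MIY-ctrl (-0.39, adjusted p = 0.0175) although the groups overlapped. That call was lost without MIY-ctrl replicate 2 (-0.23, adjusted p = 0.151) and without MEIS1-deltaHD replicate 1 (-0.32, adjusted p = 0.0969). It was also lost under quantile normalization (-0.33, adjusted p = 0.0741) and log2 centring (-0.14), and under linear median scaling the sign turned (0.066). Without the intensity trend the call was lost too (adjusted p = 0.058). Without MIY-ctrl replicate 3, M33-MEIS1 passed as lower (-0.37, adjusted p = 0.0281), against a difference of -0.22 over all arrays (adjusted p = 0.205).

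Cd34 encodes a sialomucin of the cell surface that marks blood progenitors and endothelium. Its 1 probe set, 1416072_at, read 707, 649 and 720 with M33-MEIS1 and 791, 832 and 810 with MEIS1-deltaHD. It read 795, 838 and 805 with MEIS1-WT, against 538, 492 and 520 in MIY-ctrl. The control arrays lay below all 9 construct arrays. The difference from MIY-ctrl was 0.41 with M33-MEIS1 (SE 0.0736, adjusted p = 1.58e-04), 0.64 with MEIS1-deltaHD (adjusted p = 3.94e-07) and 0.64 with MEIS1-WT (adjusted p = 3.58e-07). No alternative ended these 3 calls. The 3 M33-MEIS1 arrays lay below the 6 of the other constructs, but the differences did not pass: -0.22 from MEIS1-deltaHD (interval -0.38 to -0.07, adjusted p = 0.238) and -0.23 from MEIS1-WT (interval -0.38 to -0.08, adjusted p = 0.0756). The last passed under a stricter filter on dim signal (adjusted p = 0.0447). The difference of MEIS1-deltaHD from MEIS1-WT was -0.004 with an interval of -0.16 to 0.15.

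Prom1 encodes prominin-1 (CD133), a surface protein of membrane protrusions on progenitor cells. Its 1 probe set, 1419700_a_at, was dim. It read 37.7, 34.8 and 46.8 with M33-MEIS1 and 32.8, 41.1 and 31 with MEIS1-deltaHD. It read 14.3, 9.37 and 7.74 with MEIS1-WT, against 39.1, 27.3 and 46.5 in MIY-ctrl. The MEIS1-WT arrays lay below the other 9, and only 1 of the 3 was above the 40th percentile of its array, so the level there lies near the bottom of the measured range. The difference of MEIS1-WT from MIY-ctrl was -1.01 (SE 0.178, adjusted p = 1.03e-04). M33-MEIS1 lay above MEIS1-WT by 1.08 (adjusted p = 2.66e-04) and MEIS1-deltaHD by 0.95 (adjusted p = 0.0015). No alternative ended these 3 calls, but adding 4 or 64 in place of 16 moved the MEIS1-WT difference to -1.52 or -0.45. M33-MEIS1 and MEIS1-deltaHD did not pass against MIY-ctrl, with intervals of -0.30 to 0.44 and -0.43 to 0.31. The monocyte and macrophage markers summed to 4900 to 5581 with M33-MEIS1 and 3265 to 3556 with MEIS1-deltaHD. Their sum was 1342 to 1607 with MEIS1-WT, against 13730 to 15230 in MIY-ctrl. The part of these markers in the Prom1 result was not tested.

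**Figure D3:**
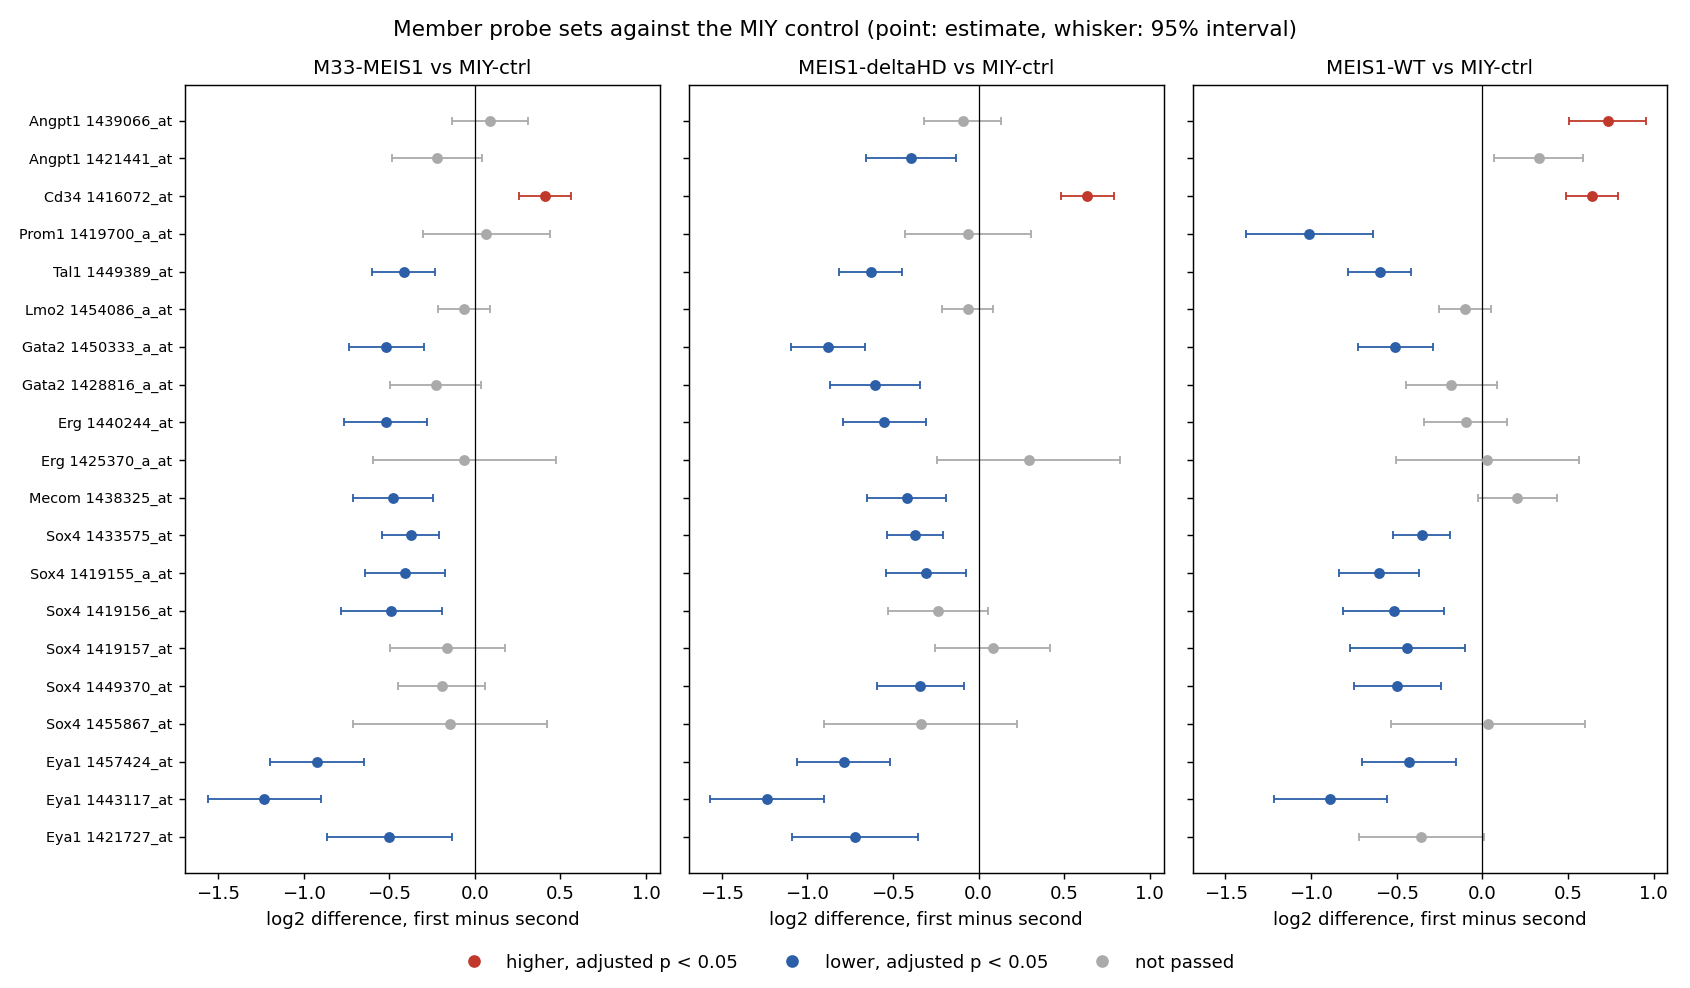
Log2 difference from MIY-ctrl of the 20 kept member probe sets (rows, by gene) for M33-MEIS1, MEIS1-deltaHD and MEIS1-WT, as a point with its 95% interval, red where higher and blue where lower at an adjusted p below 0.05. The red points are Cd34 in each panel and Angpt1 with MEIS1-WT, and the Eya1 probe set 1443117_at reached -1.23 with M33-MEIS1 and -1.24 with MEIS1-deltaHD.

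Tal1 encodes a basic helix-loop-helix factor needed for blood formation. Its 1 probe set, 1449389_at, read 293, 296 and 300 with M33-MEIS1 and 252, 260 and 247 with MEIS1-deltaHD. It read 288, 233 and 260 with MEIS1-WT, against 425, 399 and 379 in MIY-ctrl. The control arrays lay above all 9 construct arrays. The difference from MIY-ctrl was -0.42 with M33-MEIS1 (SE 0.0887, adjusted p = 9.42e-04), -0.63 with MEIS1-deltaHD (adjusted p = 5.77e-06) and -0.60 with MEIS1-WT (adjusted p = 1.23e-05). Linear median scaling ended all 3 calls (-0.07, -0.15 and -0.25), and log2 centring ended that of M33-MEIS1 (-0.23, adjusted p = 0.0972). No difference between constructs passed.

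Lmo2, the LIM-domain bridge of the TAL1 complex, was bright and did not pass in any comparison at the authors' scaling. Its 1 probe set, 1454086_a_at, read 1829, 1631 and 1638 with M33-MEIS1 and 1719, 1636 and 1744 with MEIS1-deltaHD. It read 1605, 1602 and 1766 with MEIS1-WT, against 1872, 1698 and 1762 in MIY-ctrl. All groups overlapped. The interval of the difference from MIY-ctrl was -0.22 to 0.09 with M33-MEIS1, -0.21 to 0.09 with MEIS1-deltaHD and -0.25 to 0.05 with MEIS1-WT. The scaling decided whether it passed: lower with MEIS1-WT after quantile normalization (-0.18, adjusted p = 0.0415) and higher with MEIS1-deltaHD after linear median scaling (0.44, adjusted p = 0.00255).

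Gata2 encodes a zinc finger factor of stem cells, mast cells and megakaryocytes. The brighter of its 2 probe sets on the log2 scale, 1450333_a_at, read 222, 244 and 302 with M33-MEIS1 and 206, 186 and 191 with MEIS1-deltaHD. It read 258, 239 and 272 with MEIS1-WT, against 413, 357 and 344 in MIY-ctrl. All construct arrays lay below the control arrays, and those of MEIS1-deltaHD lay below all others. The difference from MIY-ctrl was -0.52 with M33-MEIS1 (adjusted p = 5.93e-04), -0.88 with MEIS1-deltaHD (adjusted p = 6.14e-07) and -0.51 with MEIS1-WT (adjusted p = 5.89e-04), each with an SE of 0.105. Linear median scaling ended the calls of M33-MEIS1 (-0.17) and MEIS1-WT (-0.16) and kept that of MEIS1-deltaHD.

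The other Gata2 probe set, 1428816_a_at, read 300, 284 and 217 with M33-MEIS1, 189, 215 and 198 with MEIS1-deltaHD and 303, 219 and 310 with MEIS1-WT, against 323, 347 and 273 in MIY-ctrl. Of the differences from MIY-ctrl, that of MEIS1-deltaHD passed (-0.60, adjusted p = 6.46e-04; -0.13 and not passed under linear median scaling), and those of M33-MEIS1 (-0.23, adjusted p = 0.195) and MEIS1-WT (-0.18, adjusted p = 0.315) did not. MEIS1-deltaHD was lower than MEIS1-WT by the first probe set (-0.37, adjusted p = 0.0433) and missed the threshold by the second (-0.42, adjusted p = 0.0603). The first call was lost in 7 of the 12 fits that each left out 1 array: each MEIS1-WT array, each MEIS1-deltaHD array and M33-MEIS1 replicate 2, with adjusted p from 0.0543 to 0.167. It was also lost under each of the 3 other scalings. The same call was lost without the filter (adjusted p = 0.0706), with 64 added in place of 16 (adjusted p = 0.0508) and without the intensity trend (adjusted p = 0.167). The second probe set passed without MEIS1-WT replicate 2 (-0.58, adjusted p = 0.00914), and also without MIY-ctrl replicate 2 or 3 or M33-MEIS1 replicate 3. Of 9 measured markers of mast cells and basophils, 5 were higher and 1 lower than in MIY-ctrl with M33-MEIS1. With MEIS1-deltaHD 2 were higher and 6 lower, and with MEIS1-WT 1 and 7. Of 8 megakaryocyte markers, 1 was higher and 1 lower with M33-MEIS1, 0 and 4 with MEIS1-deltaHD, and 1 and 2 with MEIS1-WT. The shares over all genes were 15% and 19.3%, 16.7% and 23.7%, and 16.1% and 20.2% in that order. The part of these markers in the Gata2 result was not tested.

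Erg was read by 1 bright and 1 dim probe set. The bright one, 1440244_at, read 201, 250 and 168 with M33-MEIS1 and 177, 196 and 228 with MEIS1-deltaHD. It read 279, 302 and 257 with MEIS1-WT, against 305, 305 and 289 in MIY-ctrl. The arrays of M33-MEIS1 and MEIS1-deltaHD lay below those of MEIS1-WT and MIY-ctrl. The difference from MIY-ctrl was -0.52 with M33-MEIS1 (SE 0.116, adjusted p = 0.00148) and -0.55 with MEIS1-deltaHD (adjusted p = 6.59e-04), and -0.10 with MEIS1-WT, which did not pass (interval -0.34 to 0.14). Log2 centring ended both calls (-0.34 and -0.30), as did linear median scaling (-0.18 and -0.075).

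Against MEIS1-WT, Erg was lower with M33-MEIS1 (-0.42, adjusted p = 0.0313) and with MEIS1-deltaHD (-0.45, adjusted p = 0.0225). Each of these calls was lost in 4 of the 12 fits that left out 1 array. For M33-MEIS1 these were MEIS1-WT replicates 1 and 2 and M33-MEIS1 replicates 1 and 3, and the lowest size was without the last (-0.29, adjusted p = 0.209). For MEIS1-deltaHD they were MEIS1-WT replicates 1 and 2 and MEIS1-deltaHD replicates 1 and 2, with the lowest size without MEIS1-deltaHD replicate 1 (-0.37, adjusted p = 0.163). Both calls were also lost after log2 centring (-0.43 and -0.39), under linear median scaling (-0.43 and -0.33) and without the intensity trend, and that of M33-MEIS1 without the filter (adjusted p = 0.0621). The dim probe set, 1425370_a_at, ranged from 2.92 to 26.3 over the 12 arrays, and no comparison passed.

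Mecom encodes the zinc finger factor EVI1, which sustains stem cell self-renewal. Of its 3 probe sets, 1 was kept, and the other 2 (1422295_at and 1423011_at) read between 0.473 and 12.4 on all arrays. The kept one, 1438325_at, read 111, 96 and 95.2 with M33-MEIS1 and 102, 98.1 and 116 with MEIS1-deltaHD. It read 183, 181 and 151 with MEIS1-WT, against 138, 162 and 140 in MIY-ctrl. M33-MEIS1 and MEIS1-deltaHD arrays lay below those of both other groups. Against MEIS1-WT the difference was -0.68 with M33-MEIS1 (SE 0.112, adjusted p = 2.52e-04) and -0.63 with MEIS1-deltaHD (adjusted p = 9.05e-04), and no alternative ended either call.

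Against MIY-ctrl, Mecom was lower with M33-MEIS1 (-0.48, adjusted p = 0.00233) and MEIS1-deltaHD (-0.42, adjusted p = 0.00504). Log2 centring ended both (-0.29 and -0.17), and linear median scaling gave -0.16 and, with the sign turned, 0.028. MEIS1-WT did not pass at the authors' scaling (0.21, interval -0.03 to 0.44, adjusted p = 0.181). It passed as higher after log2 centring (0.40, adjusted p = 0.0131) and linear median scaling (0.54, adjusted p = 0.00251).

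Sox4 encodes an HMG-box factor of lymphoid and myeloid progenitors that is a known cooperating gene in mouse myeloid leukaemia. It had 8 probe sets, of which 6 were kept. The brightest, 1433575_at, read 1277, 1322 and 1343 with M33-MEIS1 and 1248, 1286 and 1427 with MEIS1-deltaHD. It read 1428, 1282 and 1294 with MEIS1-WT, against 1689, 1888 and 1567 in MIY-ctrl. The control arrays lay above the 9 construct arrays, which overlapped. The difference from MIY-ctrl was -0.38 with M33-MEIS1 (adjusted p = 8.20e-04), -0.37 with MEIS1-deltaHD (adjusted p = 7.15e-04) and -0.35 with MEIS1-WT (adjusted p = 0.00119), each with an SE of 0.079. Log2 centring ended all 3 (-0.19, -0.12 and -0.17), and linear median scaling gave -0.02, 0.13 and 0.01, the last pair with the sign turned.

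The other Sox4 probe sets did not all follow the brightest one. 1419155_a_at passed as lower with each construct (-0.41 with M33-MEIS1, -0.31 with MEIS1-deltaHD, -0.60 with MEIS1-WT). 1419156_at passed with M33-MEIS1 (-0.49) and MEIS1-WT (-0.52), and 1449370_at with MEIS1-deltaHD (-0.34) and MEIS1-WT (-0.50). 1419157_at passed with MEIS1-WT alone (-0.44, adjusted p = 0.0431) and 1455867_at in no comparison. Of these, the calls of 1419157_at with MEIS1-WT and of 1449370_at with MEIS1-deltaHD were each lost in 6 of the 12 fits without 1 array. The call of 1419155_a_at with MEIS1-deltaHD was lost without MIY-ctrl replicate 2 (-0.20, adjusted p = 0.217), MEIS1-deltaHD replicate 2 (-0.28) and MEIS1-deltaHD replicate 3 (-0.25), and with M33-MEIS1 without MIY-ctrl replicate 2 (-0.30, adjusted p = 0.0615). The call of 1419156_at was lost with MEIS1-WT without MEIS1-WT replicate 1 (-0.37, adjusted p = 0.0625) and with M33-MEIS1 without M33-MEIS1 replicate 1 (-0.32, adjusted p = 0.103). Without the filter, the calls of 1419157_at with MEIS1-WT (adjusted p = 0.0809) and 1419155_a_at with MEIS1-deltaHD (adjusted p = 0.0556) were lost. Both were also lost without the intensity trend (adjusted p = 0.111 and 0.0857). Of the 8 calls of these other probe sets against MIY-ctrl, log2 centring ended all but that of 1419155_a_at with MEIS1-WT. Quantile normalization ended those of 1419157_at with MEIS1-WT (-0.33, adjusted p = 0.166) and, with MEIS1-deltaHD, of 1419155_a_at (-0.28, adjusted p = 0.0749) and 1449370_at (-0.22, adjusted p = 0.202). Linear median scaling ended all 8, with signs turned for 1419155_a_at (0.17) and 1449370_at (0.10) in MEIS1-deltaHD, and 1419157_at passed as higher there (0.53, adjusted p = 0.0105). Pairs of the 6 kept probe sets correlated between -0.34 and 0.82 over the 12 arrays, and their calls are counted separately here. The 2 probe sets left out by the filter (1443778_at and 1458332_x_at) ranged from 0.334 to 14.5.

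Eya1 encodes a transcriptional coactivator and phosphatase that works with sine oculis homeobox proteins in organ development. Its brightest probe set, 1457424_at, read 72.1, 83.1 and 62.4 with M33-MEIS1 and 69.7, 92.2 and 81.2 with MEIS1-deltaHD. It read 102, 118 and 105 with MEIS1-WT, against 179, 130 and 147 in MIY-ctrl. The control arrays were highest, MEIS1-WT came next, and M33-MEIS1 and MEIS1-deltaHD overlapped below. From MIY-ctrl, M33-MEIS1 differed by -0.92 (SE 0.132, adjusted p = 1.01e-05), MEIS1-deltaHD by -0.79 (adjusted p = 5.17e-05) and MEIS1-WT by -0.43 (adjusted p = 0.0152). The MEIS1-WT call was lost on leaving out MIY-ctrl replicate 1 (-0.32, adjusted p = 0.112) or the first MEIS1-WT array (-0.39, adjusted p = 0.056), and under the 3 other scalings. That of MEIS1-deltaHD was lost under linear median scaling (-0.35).

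The second Eya1 probe set, 1443117_at, read 31.3, 27.6 and 21.2 with M33-MEIS1 and 32.3, 21.4 and 25.9 with MEIS1-deltaHD. It read 33.8, 39.6 and 40.5 with MEIS1-WT, against 74.3, 100 and 78.5 in MIY-ctrl. Every construct array lay below every control array. The differences from MIY-ctrl were -1.23 with M33-MEIS1 (adjusted p = 2.72e-06), -1.24 with MEIS1-deltaHD (adjusted p = 1.80e-06) and -0.89 with MEIS1-WT (adjusted p = 1.29e-04), and no alternative ended these calls. The third, 1421727_at, read 11.6 to 35.5 and was lower with M33-MEIS1 (-0.50, adjusted p = 0.0371) and MEIS1-deltaHD (-0.72, adjusted p = 0.00252), while MEIS1-WT did not pass (-0.36, adjusted p = 0.137). Its MEIS1-deltaHD call was lost after quantile normalization (-0.45, adjusted p = 0.0518) and linear median scaling (-0.44, adjusted p = 0.0647). The M33-MEIS1 call of 1421727_at was lost without any 1 of the 3 MIY-ctrl arrays, without M33-MEIS1 replicate 1 or 2, and under the 3 other scalings. Against MEIS1-WT, M33-MEIS1 was lower by 1457424_at (-0.49, adjusted p = 0.0261), a call lost without MEIS1-WT replicate 2 or 3, without M33-MEIS1 replicate 1 or 3, after log2 centring, under linear median scaling and without the intensity trend (adjusted p = 0.082). The other Eya1 probe sets did not pass there.

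Between constructs, the member probe sets that passed were all in comparisons with MEIS1-WT. With MEIS1-deltaHD, 1 member probe set was higher than with MEIS1-WT and 5 were lower, where 2.42% and 2.11% of all kept probe sets were higher and lower. With M33-MEIS1, 1 was higher and 5 were lower than with MEIS1-WT (3.36% and 2.19% of all). The higher one was Prom1 in both comparisons, and the lower ones included both Angpt1 probe sets, Mecom and Erg; the fifth was Gata2 with MEIS1-deltaHD and Eya1 with M33-MEIS1. Both comparisons use the same 3 MEIS1-WT arrays. Under linear median scaling, 2 were higher and 3 lower with MEIS1-deltaHD (983 and 302 of all). With M33-MEIS1, 1 and 3 were (739 and 470 of all). After log2 centring the counts were 2 and 3 (893 and 412 of all), and 1 and 3 (891 and 569 of all). After quantile normalization they were 1 and 4 (749 and 624 of all), and 1 and 5 (1052 and 701 of all). Between M33-MEIS1 and MEIS1-deltaHD, 0 of 20 passed in limma, where 0.438% and 0.0536% of all kept probe sets were higher and lower. At an unadjusted p below 0.05, 3 members were higher with M33-MEIS1 (both Gata2 probe sets and Tal1) and 1 was lower (Cd34), where 6.22% and 4.28% of all kept probe sets were higher and lower. The widest of these 4 was Gata2 1428816_a_at, 0.38 with an interval of 0.11 to 0.64. By the brightest probe set, 1 gene was higher and 4 lower with MEIS1-deltaHD than with MEIS1-WT (3.17% and 2.86% of all genes), and 1 and 4 with M33-MEIS1 (4.66% and 2.59%).

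**Figure D4:**
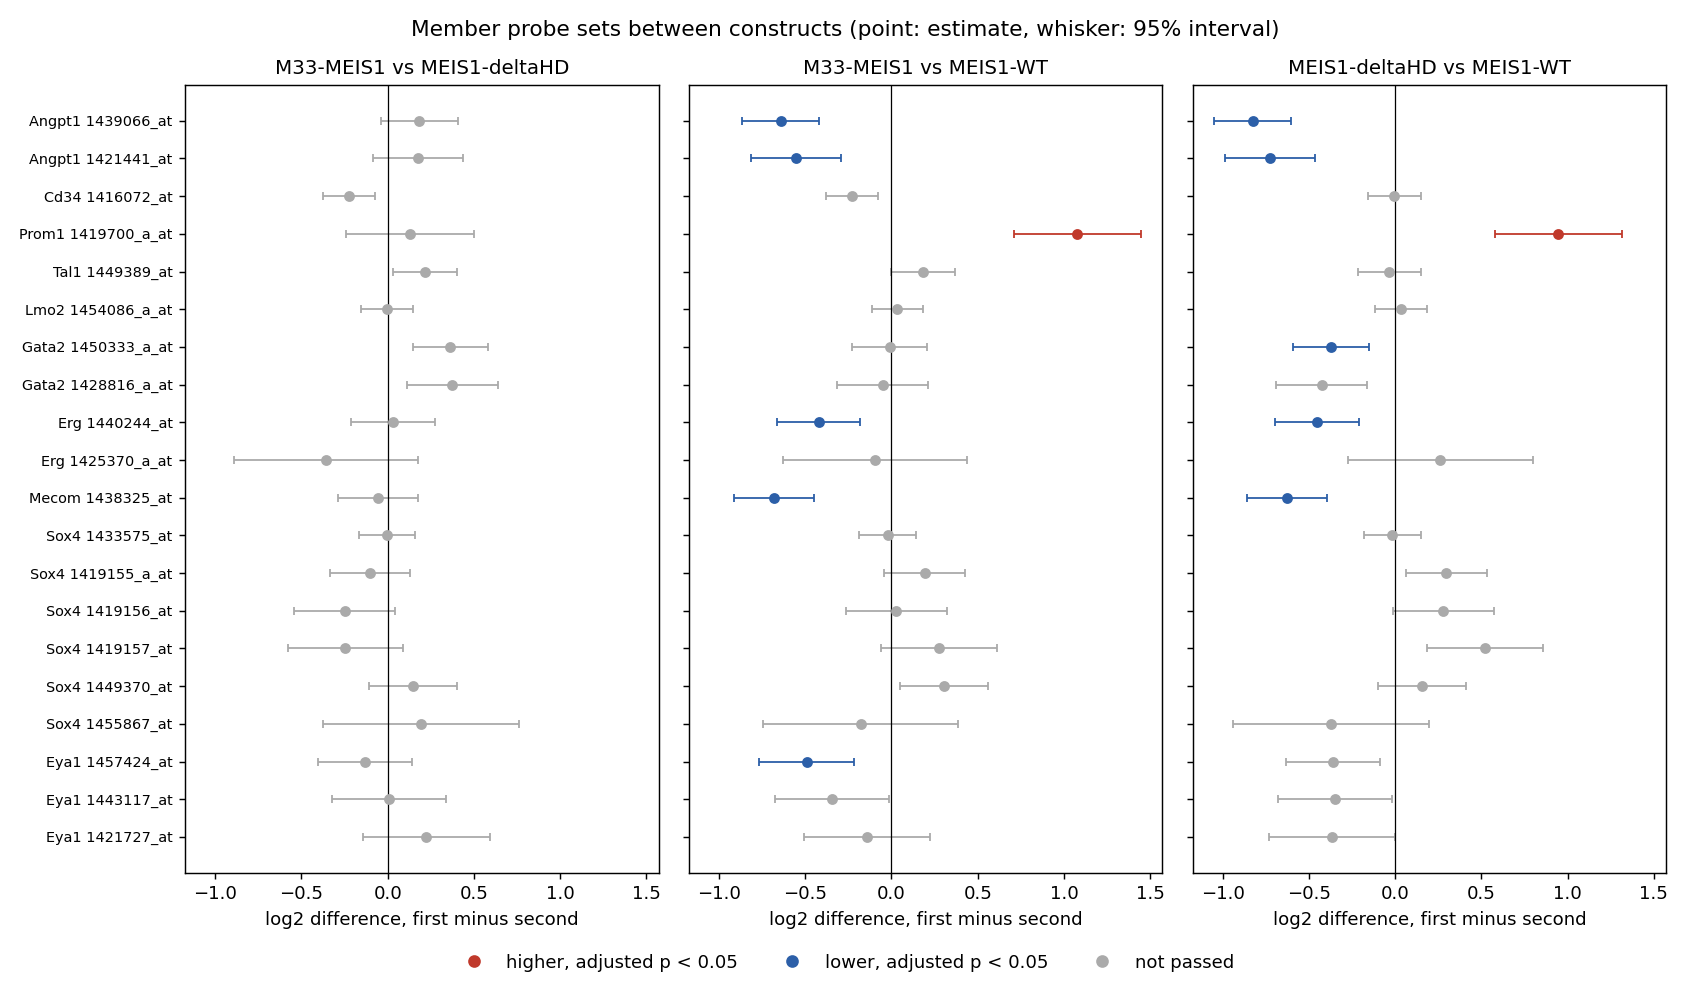
Log2 difference between constructs of the 20 kept member probe sets (rows, by gene), first-named minus second-named, as a point with its 95% interval, red where higher and blue where lower at an adjusted p below 0.05. Against MEIS1-WT, Prom1 lay near 1 with both other constructs and Angpt1 and Mecom below -0.5, while no point of M33-MEIS1 against MEIS1-deltaHD is coloured.

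Other regulators of blood stem cells were read in the same way. Of 25 measured regulators outside the 10, Meis1 among them and nearly all transcription factors, 1 was higher and 12 lower with M33-MEIS1, 1 and 10 with MEIS1-deltaHD, and 5 and 9 with MEIS1-WT, each against MIY-ctrl. Their median log2 difference was -0.31 with M33-MEIS1, -0.25 with MEIS1-deltaHD and -0.13 with MEIS1-WT. Over all 14005 genes, 15% were higher and 19.3% lower with M33-MEIS1, 16.7% and 23.7% with MEIS1-deltaHD, and 16.1% and 20.2% with MEIS1-WT. The counts of the 25 shift with the scaling. Linear median scaling gave 6 higher and 4 lower with M33-MEIS1, 10 and 3 with MEIS1-deltaHD, and 10 and 3 with MEIS1-WT. Of all probe sets that passed under it, 81.9%, 84.3% and 79.1% were higher in that order. Hlf, a PAR-bZIP factor of stem cells, read 80, 75.6 and 60.2 with M33-MEIS1 and 97.2, 92.6 and 115 with MEIS1-deltaHD. It read 427, 416 and 455 with MEIS1-WT, against 186, 246 and 158 in MIY-ctrl. It was lower with M33-MEIS1 (-1.26, adjusted p = 1.03e-07) and MEIS1-deltaHD (-0.84, adjusted p = 2.08e-05) and higher with MEIS1-WT (1.10, adjusted p = 5.30e-07), under all 4 scalings.

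Msi2, an RNA-binding protein of stem cells, was also higher with MEIS1-WT (0.48, adjusted p = 0.00988) and lower with M33-MEIS1 (-0.41, adjusted p = 0.0281) and MEIS1-deltaHD (-0.42, adjusted p = 0.0198). The lower calls of Msi2 did not pass after log2 centring (-0.23 and -0.17) or linear median scaling, where the MEIS1-deltaHD difference was 0.061. Gfi1b, a repressor of erythroid and megakaryocytic cells, was higher with MEIS1-WT (1.00, adjusted p = 4.19e-06). Mycn, a MYC family factor, read 1631, 1661 and 1878 with M33-MEIS1, against 7178, 6733 and 6331 in MIY-ctrl, a difference of -1.96 (adjusted p = 4.09e-14). Hoxb4 and the Ikaros relative Ikzf2 were lower with each construct, Hoxb4 by -1.28, -0.89 and -0.96 and Ikzf2 by -0.43, -0.81 and -0.89 with M33-MEIS1, MEIS1-deltaHD and MEIS1-WT. The Ikzf2 call with M33-MEIS1 was lost after log2 centring (-0.24) and linear median scaling (-0.079). Against MEIS1-WT, 1 of the 25 was higher and 5 lower with M33-MEIS1 (4.66% and 2.59% of all genes). With MEIS1-deltaHD, 2 were higher and 5 lower (3.17% and 2.86%). Against MEIS1-deltaHD, 0 of the 25 were higher and 1 was lower with M33-MEIS1, which was Mycn. Of all kept probe sets, 0.438% were higher and 0.0536% lower in that comparison.

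Of 15 measured partners of the TAL1 and LMO2 complex, 1 was higher and 6 lower with M33-MEIS1, 1 and 7 with MEIS1-deltaHD, and 1 and 7 with MEIS1-WT. The shares over all genes were 15% and 19.3%, 16.7% and 23.7%, and 16.1% and 20.2% in the same order. Linear median scaling gave 3 higher and 1 lower, 5 and 2, and 3 and 2 of these partners. Id2, an inhibitor of E-proteins, was lower in all 3: by -2.19 with MEIS1-WT (adjusted p = 4.94e-10), -1.29 with MEIS1-deltaHD (adjusted p = 1.94e-06) and, in M33-MEIS1, -0.54 (adjusted p = 0.0169). The M33-MEIS1 call was lost after log2 centring (-0.36) and linear median scaling (-0.20). The E-protein Tcf12, a binding partner of TAL1, was lower with each (-0.99, -1.02 and -0.72) under all 4 scalings. The higher one was Tcf3, another E-protein, with 0.51 in M33-MEIS1, 0.57 in MEIS1-deltaHD and 0.45 in MEIS1-WT, under all 4 scalings.

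Of 16 measured surface proteins of stem and progenitor cells, 2 were higher and 7 lower with M33-MEIS1, 2 and 8 with MEIS1-deltaHD, and 5 and 5 with MEIS1-WT. The shares over all genes were 15% and 19.3%, 16.7% and 23.7%, and 16.1% and 20.2% in the same order. Linear median scaling gave 2 and 3, 5 and 2, and 5 and 2 of the surface proteins. Flt3, a cytokine receptor of early progenitors, read 67.6, 91.4 and 94.1 with M33-MEIS1 and 120, 133 and 99.4 with MEIS1-deltaHD. It read 317, 305 and 372 with MEIS1-WT, against 169, 168 and 137 in MIY-ctrl. The MEIS1-WT arrays lay above and the other constructs below the control (1.00, adjusted p = 1.52e-06 with MEIS1-WT; -0.80, adjusted p = 3.73e-05 with M33-MEIS1; -0.39, adjusted p = 0.0209 with MEIS1-deltaHD). The MEIS1-deltaHD call of Flt3 was lost under the 3 other scalings, with 0.067 under linear median scaling. Cd93, a C-type lectin of progenitors, was lower with each construct (-1.39, -1.38 and -0.89), and Alcam, an adhesion molecule, too (-0.84, -0.92 and -1.33), both under all 4 scalings.

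Against MEIS1-WT, 1 surface protein was higher and 4 were lower with M33-MEIS1 (4.66% and 2.59% of all genes). With MEIS1-deltaHD, 0 were higher and 4 lower (3.17% and 2.86%). Flt3 was lower (-1.80 with M33-MEIS1, -1.38 with MEIS1-deltaHD), as were the stem cell factor receptor Kit (-0.88 and -0.64) and Cd93 (-0.51 and -0.50, the last lost under linear median scaling). Itga2b was lower with MEIS1-deltaHD (-0.71), and Podxl was higher with M33-MEIS1 (0.71).

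**Figure D5:**
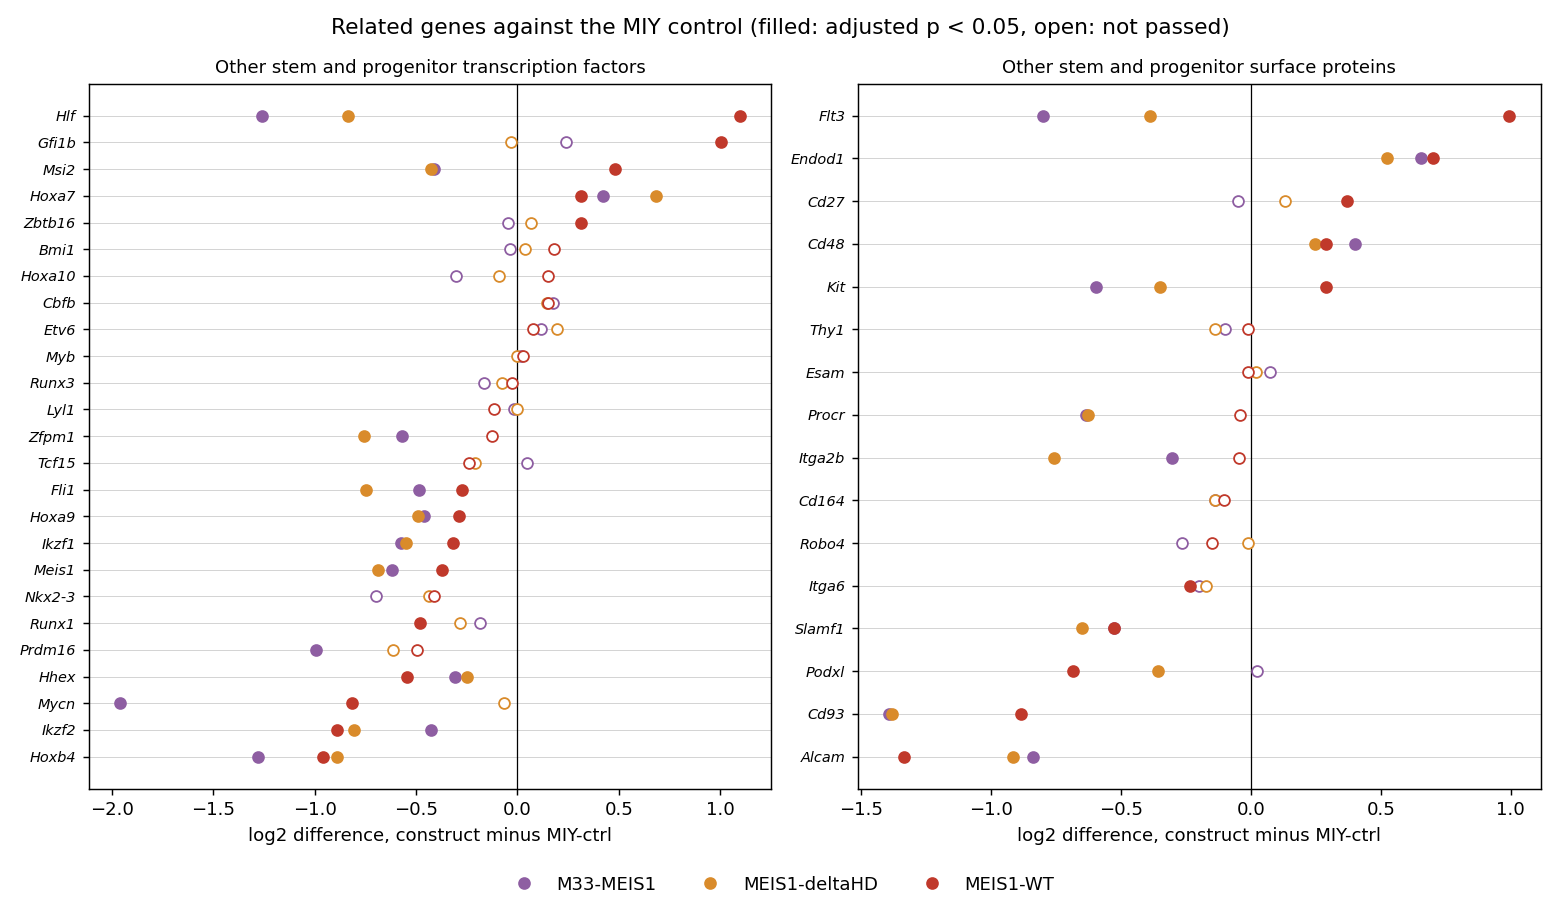
Log2 difference from MIY-ctrl of 25 stem and progenitor regulators (left) and 16 surface proteins (right) outside the 10 genes, ordered by the MEIS1-WT value, with filled points where the adjusted p was below 0.05. Hlf and Flt3 sit above 1 or near it with MEIS1-WT and below 0 with M33-MEIS1 and MEIS1-deltaHD.

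Relatives of single members were read last, against MIY-ctrl. Of all 14005 genes, 15% were higher and 19.3% lower with M33-MEIS1, 16.7% and 23.7% with MEIS1-deltaHD, and 16.1% and 20.2% with MEIS1-WT. Among 8 genes of the EYA network of coactivators and their DNA-binding partners, 0 genes were higher with any construct, and 3, 2 and 1 were lower with M33-MEIS1, MEIS1-deltaHD and MEIS1-WT, each count including Eya2. Eya2 lay below the 40th percentile on all 3 arrays of M33-MEIS1 and of MEIS1-deltaHD, so no size is given. Its MEIS1-WT call was lost under the 3 other scalings. Six2, another of the lower genes with M33-MEIS1, also lay below the 40th percentile on all 3 M33-MEIS1 arrays. Of 5 angiopoietin and TIE genes, 1 was lower with each construct, Angptl6 (-2.19, -1.65 and -1.76). Of 7 SOX relatives, 0 were higher, and Sox11 was lower with MEIS1-deltaHD and MEIS1-WT, where all 3 arrays lay below the 40th percentile, and under none of the 3 other scalings. Of 7 EVI1 and PRDM relatives and partners, 0 were higher and 1 lower with M33-MEIS1 (Prdm16, below the 40th percentile on all 3 M33-MEIS1 arrays), 1 and 0 with MEIS1-deltaHD (the co-repressor Ctbp2, 0.34), and 3 and 0 with MEIS1-WT (Prdm2, Zbtb16 and Ctbp1, 0.31, 0.31 and 0.23). Linear median scaling gave 3, 5 and 5 higher in this last list, and 1, 0 and 0 lower.

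The genes whose signal ran most like a member's over the 12 arrays were found by Pearson's r on the log2 scale, as a description, since all 12 arrays share the group differences. For Angpt1 they were Icos (0.94), Rasgef1b (0.94) and Igfbp7 (0.93); Icos averaged 72.3 ± 5.2 with MEIS1-WT, against 20.3 ± 4.51 in MIY-ctrl. For Prom1 they were Atp6ap2 (0.99), Hsd11b1 (0.98) and Igsf6 (0.97); Igsf6 averaged 19.9 ± 3.25 with MEIS1-WT, against 197 ± 60.2 in MIY-ctrl. For Mecom they were Itgav (0.96), Zfp503 (0.96) and Pvr (0.95), and for Erg Lats2 (0.95), Kdm5a (0.94) and Rbm18 (0.93). For Eya1 they were Ccdc39 (0.97), Hoxa9 (0.97) and Garre1 (0.96). For Cd34, Puf60 (0.99) led, for Tal1 Stxbp6 (0.98), for Gata2 Polk (0.97) and for Sox4 Rab1a (0.98). Among the members themselves, Tal1 and Cd34 ran most nearly opposite (r = -0.95), Tal1 and Gata2 together (0.88), Eya1 and Erg together (0.87), and Angpt1 and Prom1 opposite (-0.86).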

How the data were processed

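The values are array intensity as deposited by the authors, 1 linear signal per probe set from GCOS 1.2 per the submitters' processing notes and their other settings are unknown here. After trimming 2% at each end, the deposited intensities of every array averaged 100. Of 45101 probe sets, 64 array controls were left out. The rest carried 1 symbol (34945), several (932) or none (9160) in the platform annotation. From these values log2(signal + 16) was computed. Adding 16 shrinks the differences of dim probe sets.

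Each of 31726 kept probe sets was fitted singly in 1 model of the 4 groups with limma 3.58.1 (eBayes with an intensity trend, 8 residual degrees of freedom, R 4.3.3), two-sided, with Benjamini-Hochberg adjustment over all kept probe sets within each of 6 comparisons. The fit was tested on simulated data. With 3 arrays a group, exact permutation of 1 value cannot reach below 0.1, and precision is limited by the array number. The series speaks of independent experiments for each condition. Same-numbered arrays did not deviate together (18 pairs, r from -0.05 to 0.03), so the fit had no replicate block.

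The members, the lists of related genes and cell markers, and the tests were chosen with earlier results of these data known. Named were all members, the 3 genes most like each member that passed against MIY-ctrl (all 3 or the first), and from each list up to 4 genes with the largest difference that passed, plus Meis1; exceptions are stated. Alternatives were other filters, scalings, added constants, no trend, a replicate block, 1 probe set per gene, suffixed probe sets left out, and each array left out. Upstream windows came from RefSeq's GRCm38.p6 table. Signals of different probe sets were compared only to pick each gene's brightest one and to call a probe set bright or dim. The marker sums add signals of different probe sets, so bright genes weigh most in them.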

Additional observations from a re-analysis of the deposited data

How the results depend on the processing

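Over the 20 kept member probe sets and 6 comparisons there were 120 values. Under linear median scaling 83 of the 120 kept their call, 24 no longer passed, 5 newly passed and 8 turned sign. Log2 centring, added after seeing the data, left 95 as they were, and quantile normalization 110. At the authors' scaling, 11 member probe sets passed against MIY-ctrl with M33-MEIS1 (1 higher, 10 lower). With MEIS1-deltaHD 13 passed (1 and 12), and with MEIS1-WT 12 (2 and 10). Linear median scaling gave 4 (2 and 2), 6 (4 and 2) and 6 (4 and 2) in the same order. Log2 centring gave 4 (1 and 3), 7 (1 and 6) and 9 (4 and 5). Quantile normalization gave 10 (1 and 9), 9 (1 and 8) and 12 (3 and 9). Of all 31726 kept probe sets, the authors' scaling gave 3740 higher and 5420 lower, 4365 and 6595, and 4161 and 5662. For all probe sets, linear median scaling gave 7219 and 1599, 9653 and 1799, and 7896 and 2081. Log2 centring gave 5846 and 2387, 7563 and 2744, and 6635 and 2886 of all. Quantile normalization gave 4350 and 3772, 5266 and 4394, and 4968 and 4071 of all. Reading 1 probe set per gene gave 7, 7 and 7 member calls, by construction. Without the intensity trend M33-MEIS1 against MEIS1-WT gave 3, against 6. The values that turned sign under linear median scaling were, with MEIS1-deltaHD against MIY-ctrl, Angpt1 1439066_at (0.39), Angpt1 1421441_at (0.066), Lmo2 (0.44), Mecom (0.028) and Sox4 1433575_at (0.13), 1419155_a_at (0.17) and 1449370_at (0.10), and with MEIS1-WT Sox4 1433575_at (0.01). The cause was not tested. Leaving out 1 array at a time gave 9 to 11, 10 to 13 and 9 to 12 against MIY-ctrl, and 0 to 0 (M33-MEIS1 against MEIS1-deltaHD), 4 to 6 (M33-MEIS1 against MEIS1-WT) and 4 to 8 (MEIS1-deltaHD against MEIS1-WT). With the replicate block, the counts were 11 with M33-MEIS1, 12 with MEIS1-deltaHD and 11 with MEIS1-WT against MIY-ctrl, and 0, 6 and 5 between constructs in the same order as above. It ended 3 calls: Sox4 1419157_at with MEIS1-WT, Sox4 1419155_a_at with MEIS1-deltaHD, and Gata2 1450333_a_at between MEIS1-deltaHD and MEIS1-WT. Of the 12 arrays, 4 correlated best with an array of their own number. Dim probe sets (Prom1 with MEIS1-WT, Eya1 1421727_at, the second Erg set) lie near the lower end of the signal range, which limits the size of their differences.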
